A study of Mus musculus with 3 samples.

Results

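Retinoic acid is the active form of vitamin A, and 9 genes that take up its precursor, make it, bind it, break it down or respond to it were followed in wild-type, heterozygous and homozygous tw18 mouse embryos. They were taken by symbol as *Stra6*, *Dhrs3*, *Aldh1a1*, *Aldh1a2*, *Aldh1a3*, *Crabp1*, *Crabp2*, *Cyp26a1* and *Rarb*, and all 9 were present among the 23421 genes measured. RNA-seq had been done at embryonic day 6.5, when the primitive streak begins to form, on 3 libraries: wild type, tw18/+ and tw18/tw18. Among embryos stained by in situ hybridization at this day, the study calls the mutants slightly younger. The part of developmental stage in the differences was not tested. The labels give the strain of every library as 129/SvEv, while the study raises differences in genetic background between its embryos. The study names crosses between tw18/+ parents for the embryos it stained by in situ hybridization. It does not state the cross behind the sequenced embryos. A tw18/tw18 embryo inherits tw18 from both parents, so the mothers of that library carried tw18. The genotype of the mothers is not known here for the wild-type and tw18/+ libraries. The tw18 haplotype carries a large deletion on Chr 17 that removes *Ppp2r1a*, the gene of a scaffolding subunit of protein phosphatase 2A, together with neighbouring genes. The labelled tissue is epiblast, and according to the methods the RNA came from the embryonic part, in which visceral endoderm surrounds the epiblast. How many embryos went into a library is not given in the sources used here. With 1 library per genotype, no difference has a replicate check and no p-value is given.

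Cells take up retinol from its plasma carrier, oxidise it to retinaldehyde and then to retinoic acid, which enters the nucleus and binds receptors of the RAR family paired with RXR partners on response elements in the DNA. Several genes that limit the signal are themselves switched on by it, among them *Cyp26a1* and *Dhrs3*, so the pathway is held in check by feedback. In the early embryo the signal is kept low before gastrulation and later patterns the trunk and hindbrain. The uterus also handles retinoids while its stroma decidualizes around the implanted embryo.

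The response element is shown first because it lies in the promoters of 2 of the genes described. It consists of a pair of motifs of 6 bases in the same orientation, and each was allowed to read AGGTCA or AGTTCA or else GGGTCA or GGTTCA. RefSeq promoter windows for GRCm38, which run from 250 bases before a transcription start to 50 after it, were found for 7 of the 9 genes in 13 windows, and none for *Aldh1a3* and *Crabp2*. Both strands were searched with 1, 2 or 5 bases between the motifs. A pair with 5 bases between them was present in the windows of *Cyp26a1* and *Rarb*, and in 0.0974% of all 32851 windows. Pairs with a spacing of 1 or 2 were found in none of the 13 windows, and in 0.222% and 0.268% of all windows. The stretches around both matches are given on the strand of the gene, with the 17 bases of the match in capitals.
Cyp26a1 (chr19:37697736-37697807, plus strand): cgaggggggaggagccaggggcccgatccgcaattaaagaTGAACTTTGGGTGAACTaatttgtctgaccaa
Rarb (chr14:16575507-16575535, minus strand): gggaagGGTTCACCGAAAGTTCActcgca
In *Cyp26a1* the match runs from position -32 to -16 before the start and reads on the opposite strand to the gene, and in *Rarb* it runs from -53 to -37 in the direction of the gene. The shorter stretch of *Rarb* also lies inside an exon of a longer transcript in GENCODE. A match is a description of the letters in these windows, and elements elsewhere in the genes were not searched.

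Expression is given in FPKM, the fragments on a gene per kilobase of its exons, scaled to the depth of the library, so that levels can be compared between genes. Because low values come in steps of 1 fragment, it was possible to estimate the fragments behind each value, with a 95% counting interval. The intervals cover counting error only, not differences between embryos, and PCR copies of a molecule are counted as separate fragments. The depth estimated in this way was 1.40 times that of wild type in tw18/+ and 1.39 times in tw18/tw18. *Ppp2r1a* had FPKM values of 146 in wild type, 81.7 in tw18/+ and 12.8 in tw18/tw18. The level in tw18/tw18 was the lowest but not 0, and the source of these fragments was not tested.

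*Stra6* had the largest ratio among the genes not listed at 0 and was higher in tw18/tw18 than in both other libraries, as were *Aldh1a2* and *Rarb*. *Crabp1* was lower in tw18/tw18 than in both. *Cyp26a1*, the most abundant of the 9 in every library, differed less. A gene was counted as higher or lower where the larger FPKM of a pair was at least 1 and the log2 ratio was at least 1 in either direction. A gene listed at 0 in 1 library of the pair has no ratio and was counted where the other FPKM was at least 1. Of the 9 genes, only *Aldh1a1* was counted in this way. Between tw18/tw18 and wild type 8 of the 9 genes reached an FPKM of 1, and of these *Stra6*, *Aldh1a1*, *Aldh1a2* and *Rarb* were higher, *Crabp1* was lower and 3 passed in neither direction. *Aldh1a1* and *Rarb* reached 1 only in tw18/tw18, so they could be counted in that direction alone. Over all 12917 genes that reached 1 in this pair, 15.1% were higher and 6.94% lower in tw18/tw18. Against tw18/+, *Dhrs3* joined the higher genes, which made 5 higher and 1 lower, where 14.9% of 12846 genes were higher and 5.65% lower in tw18/tw18. Between tw18/+ and wild type none of the 9 genes was counted in either direction, where 4.70% of 12426 genes were higher and 5.02% lower in tw18/+. The comparisons share libraries and are not independent of each other.

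**Figure D1:**
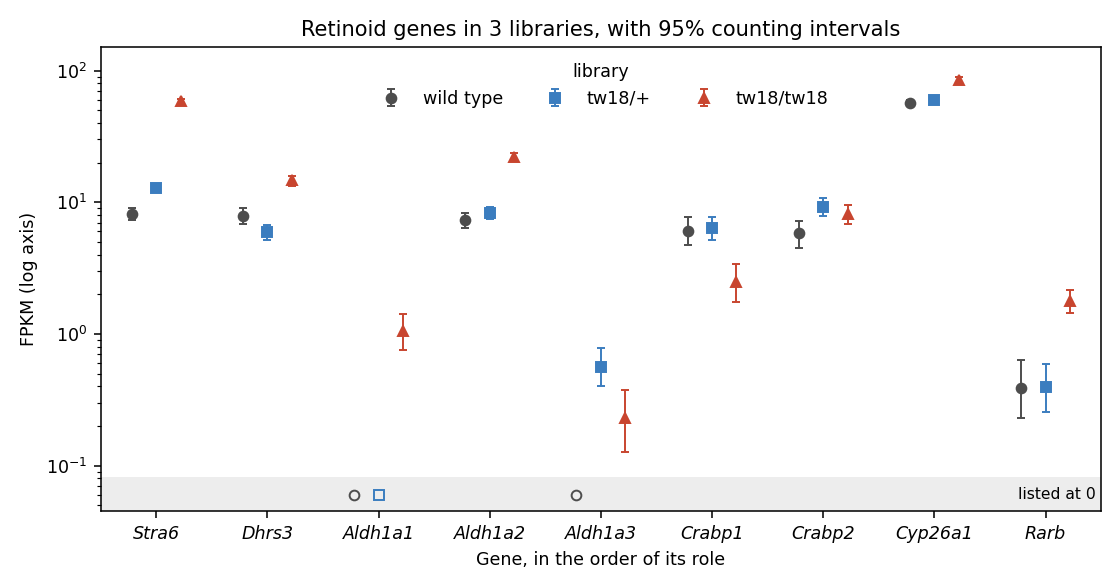
FPKM of the 9 retinoid genes on a log axis in wild type (circles), tw18/+ (squares) and tw18/tw18 (triangles), with bars for the 95% counting interval and open symbols in the grey band for values listed at 0. *Stra6* stands at 59.0 in tw18/tw18 against 8.16 and 12.9, while *Crabp1* is lowest in tw18/tw18 at 2.46.

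*Stra6* encodes the cell surface receptor that takes up retinol from its plasma carrier RBP4, and it lies on Chr 9 from 58063788 to 58153996. Its FPKM was 8.16 in wild type, 12.9 in tw18/+ and 59.0 in tw18/tw18, from about 328, 725 and 3285 fragments. The level in tw18/tw18 was thus 7.23 times that of wild type, a log2 ratio of 2.85 (95% counting interval 2.69 to 3.02). It was 4.59 times that of tw18/+. Only tw18/tw18 stood apart in size, but the tw18/+ value was also above wild type, by a log2 ratio of 0.66 (0.47 to 0.85). In rank within the library, *Stra6* was above 70.9% of the genes of the wild-type library and 95.3% of those of tw18/tw18. The ratio of its FPKM to that of *Rbp4*, the carrier it takes retinol from, was 0.0974 in wild type, 0.163 in tw18/+ and 0.371 in tw18/tw18.

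*Dhrs3* encodes a reductase that turns retinaldehyde back into retinol and so withdraws substrate from retinoic acid synthesis. It lies on Chr 4 from 144892827 to 144928209. Its FPKM was 7.86 in wild type, 5.90 in tw18/+ and 14.6 in tw18/tw18, from about 200, 210 and 515 fragments. The tw18/+ value was below wild type beyond counting error, and tw18/tw18 was above both. Its log2 ratio in tw18/tw18 was 0.90 (0.66 to 1.14) against wild type, just under the threshold, and 1.31 (1.08 to 1.55) against tw18/+. With the libraries scaled to equal FPKM sums, the ratio against wild type passed the threshold, at 1.11.

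The 3 retinaldehyde dehydrogenases carry out the last step, the oxidation of retinaldehyde to retinoic acid, and *Aldh1a2* is the one the early embryo depends on. *Aldh1a2* lies on Chr 9 from 71215789 to 71296243. Its FPKM was 7.29 in wild type, 8.27 in tw18/+ and 22.1 in tw18/tw18, from about 227, 361 and 953 fragments. The first 2 values differed within counting error, with a log2 ratio of 0.18 (-0.06 to 0.43). The tw18/tw18 value was 3.03 times that of wild type, a log2 ratio of 1.60 (1.39 to 1.82), and 2.67 times that of tw18/+. *Aldh1a1*, on Chr 19 from 20492715 to 20643465, was listed at 0 in wild type and in tw18/+ and had a level of 1.05 FPKM in tw18/tw18, from about 41 fragments. A value of 0 can also be a failed estimate, so no ratio is given, and 3 fragments would be worth 0.106 FPKM in wild type and 0.0757 in tw18/+. *Aldh1a3*, on Chr 7 from 66390890 to 66427517, was listed at 0 for wild type and reached 0.564 in tw18/+ and 0.230 in tw18/tw18, from about 38 and 15 fragments. It stayed under an FPKM of 1 in every library and was not counted. The sum of the 3 genes was 7.29 in wild type, 8.83 in tw18/+ and 23.4 in tw18/tw18, and *Aldh1a2* made up most of it in each.

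The cellular retinoic acid binding proteins hold retinoic acid in the cytoplasm, and CRABP2 hands it on to the nuclear receptors. *Crabp1* lies on Chr 9 from 54764748 to 54773110. Its FPKM was 6.06 in wild type, 6.37 in tw18/+ and 2.46 in tw18/tw18, from about 67, 99 and 38 fragments. It was the only 1 of the 9 genes that was lower in tw18/tw18 by the threshold, with a log2 ratio of -1.30 (-1.90 to -0.69) against wild type and -1.37 (-1.94 to -0.81) against tw18/+. *Crabp2*, on Chr 3 from 87948666 to 87953376, had FPKM values of 5.79 in wild type, 9.22 in tw18/+ and 8.11 in tw18/tw18, from about 74, 166 and 144 fragments. Here tw18/+ and tw18/tw18 differed within counting error (log2 ratio -0.18, from -0.52 to 0.14), and wild type was below both. The ratio of *Crabp2* to *Crabp1* accordingly went from 0.956 in wild type to 1.45 in tw18/+ and 3.29 in tw18/tw18. The sum of both genes varied less, with 11.9, 15.6 and 10.6 in the same order. The numbers of fragments were small for both genes, and the counting intervals are wide.

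*Cyp26a1* encodes the cytochrome P450 enzyme that hydroxylates retinoic acid and starts its breakdown. It lies on Chr 19 from 37697798 to 37701536. Its FPKM was 56.6 in wild type, 59.6 in tw18/+ and 85.4 in tw18/tw18, from about 1397, 2061 and 2920 fragments. It ranked first of the 9 genes in each library and exceeded between 94.5% and 97.0% of all genes. Wild type and tw18/+ differed within counting error, with a log2 ratio of 0.07 (-0.02 to 0.17). The tw18/tw18 value was 1.51 times that of wild type, a log2 ratio of 0.59 (0.50 to 0.69), beyond counting error but under the threshold. As *Aldh1a2* differed more, the FPKM of *Cyp26a1* was 7.77 times that of *Aldh1a2* in wild type, 7.21 times in tw18/+ and 3.87 times in tw18/tw18.

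*Rarb* encodes the retinoic acid receptor beta, whose own promoter carries the element shown above, and it lies on Chr 14 from 16430839 to 16819156. Its FPKM was 0.392 in wild type, 0.393 in tw18/+ and 1.77 in tw18/tw18, from about 17, 24 and 105 fragments. The first 2 libraries hardly differed and tw18/tw18 was 4.51 times wild type, a log2 ratio of 2.17 (1.41 to 2.99). With a pseudocount of 1, which weighs low values less, the difference was 0.99 and no longer passed the threshold. In the annotation the exons of *Top2b*, on the opposite strand, lie across 57.7% of the exonic bases of the *Rarb* transcript. *Top2b* had FPKM values of 22.9, 22.1 and 25.2 in the same order, and whether the strand of the reads was used in the counting is not given in the sources used here. The part of *Top2b* fragments in the value of *Rarb* was not tested. Of the words of 50 bases in *Rarb*, 34.1% were also found in another gene, and *Gm48162* overlaps it on the opposite strand too. Both strands were searched, so words in bases shared with the overlapping genes *Top2b* and *Gm48162* count among the 34.1%. Of the other members, *Aldh1a1* had 3.06% and *Aldh1a3* 1.15% of their words of 50 bases in another gene, and the remaining 6 had none. None of these other members shares exon bases with another gene.

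**Figure D2:**
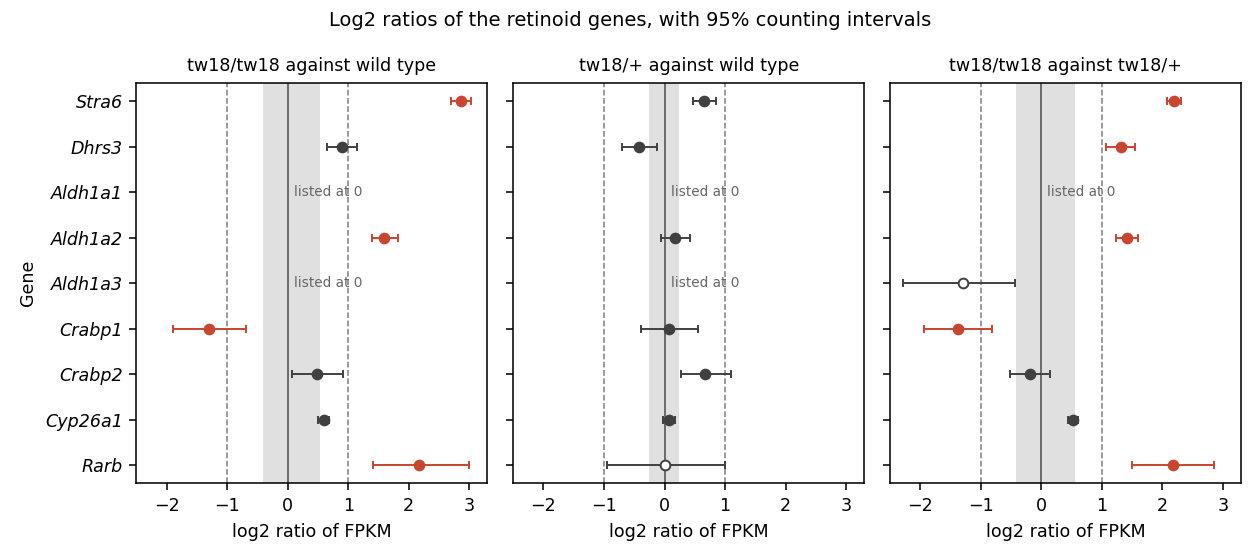
Log2 ratios of FPKM of the 9 genes for the 3 pairs of libraries, with bars for the 95% counting interval, dashed lines at the threshold of 1 in either direction and grey bands for the interquartile range of all genes tested. Filled red points passed the threshold, open points had an FPKM under 1 in both libraries, and genes listed at 0 have no ratio. *Stra6* (2.85), *Rarb* (2.17) and *Aldh1a2* (1.60) lie to the right of the band in tw18/tw18 against wild type and *Crabp1* (-1.30) to its left.

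Within a library the order of the levels also differed. In wild type *Cyp26a1* led with 56.6 and was followed by *Stra6*, *Dhrs3*, *Aldh1a2*, *Crabp1* and *Crabp2*, whose FPKM ran only from 8.16 down to 5.79 and whose counting intervals overlapped from each gene to the next. In tw18/+ *Stra6* stood above the next gene, *Crabp2*, beyond counting error, while *Crabp2*, *Aldh1a2*, *Crabp1* and *Dhrs3* overlapped from each to the next. In tw18/tw18 the order was *Cyp26a1*, *Stra6*, *Aldh1a2*, *Dhrs3*, *Crabp2*, *Crabp1*, *Rarb*, *Aldh1a1* and *Aldh1a3*, and only *Crabp1* and *Rarb* overlapped. The 5 genes that lay close together in wild type thus spanned an FPKM from 59.0 to 2.46 in tw18/tw18.

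For the 6 members with an FPKM of at least 5 in any library, the genes with the nearest pattern were sought among 9411 genes by the distance in the pair of differences of log2(FPKM + 1) against wild type. These patterns rest on 3 libraries. The nearest to *Stra6* were *Sqrdl*, with an FPKM of 5.01, 7.68 and 35.6 in wild type, tw18/+ and tw18/tw18, and *Hoxa11*, a homeobox gene of the uterine stroma, with 3.67, 6.87 and 30.8. No gene lay within a distance of 0.1 of *Stra6*. The nearest to *Aldh1a2* were *Igfbp6* and *Vill*, to *Dhrs3* *Epb4.1l1* and *Hdac7*, to *Crabp1* *Cnksr3* and *Pfdn4*, to *Crabp2* *Tspo* and *Tst*, and to *Cyp26a1* *Grb10* and *Sike1*. Within 0.1 there were 10 genes for *Aldh1a2* and 128 for *Cyp26a1*.

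The rest of the pathway was read from a list of 65 other genes, all of them in the table. Between tw18/tw18 and wild type 42 reached an FPKM of 1, of which 11 were higher, 4 lower and 27 neither, beside 15.1% higher and 6.94% lower over all genes. Of the 11 higher genes 6 were under an FPKM of 1 in wild type, and of the 4 lower genes 2 were under it in tw18/tw18, so these could be counted in that direction alone. The median difference of log2(FPKM + 1) was 0.33 against -0.0074 over all genes tested. With equal FPKM sums the split was 15 higher and 2 lower. Against tw18/+ 15 of 40 were higher and 2 lower in tw18/tw18, beside 14.9% and 5.65% over all genes, and 4 of the 15 were under an FPKM of 1 in tw18/+.

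Among the carriers, *Rbp4*, the plasma carrier of retinol that the visceral endoderm secretes, had FPKM values of 83.8 in wild type, 79.0 in tw18/+ and 159 in tw18/tw18. Its log2 ratio in tw18/tw18 was 0.93 against wild type and 1.01 against tw18/+. *Fabp5*, a fatty acid binding protein that can also carry retinoic acid, was lower, at 119, 129 and 55.3 FPKM in wild type, tw18/+ and tw18/tw18, with a log2 ratio of -1.11 against wild type and -1.22 against tw18/+. *Lpl*, the lipoprotein lipase, was lower too, with 5.72, 4.71 and 1.70 and log2 ratios of -1.75 and -1.47. Of the 7 carrier, uptake and storage genes that reached an FPKM of 1 in tw18/tw18 or wild type, *Fabp5* and *Lpl* were the 2 that passed the threshold. Over all genes 15.1% were higher and 6.94% lower in this pair. With equal FPKM sums *Lpl* still passed it and *Fabp5* did not, while *Rbp4* passed it.

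In the list of synthesis enzymes, *Rdh10*, the main enzyme that oxidises retinol to retinaldehyde in the embryo, had FPKM values of 7.19 in wild type, 5.60 in tw18/+ and 11.8 in tw18/tw18. Its log2 ratio was 0.71 against wild type and 1.07 against tw18/+, a pair of values close to those of *Dhrs3*, which runs the reaction backwards. Of the 10 synthesis genes tested against wild type, 1 was higher and 1 lower, beside 15.1% and 6.94% over all genes. The other CYP26 genes were low. *Cyp26b1* had FPKM values of 0.493, 0.375 and 1.58, from about 28, 30 and 125 fragments, and its log2 ratio in tw18/tw18 was 1.68 against wild type and 2.07 against tw18/+. *Cyp26c1* had FPKM values of 1.44, 0.0333 and 0.335, from about 35, 1 and 11 fragments, so that of the 3 CYP26 genes it alone was highest in wild type. Its log2 ratio in tw18/tw18 against wild type was -2.11 (-3.27 to -1.13). *Cyp2s1*, a P450 of another family, had FPKM values of 3.29, 1.98 and 7.42, with log2 ratios of 1.17 and 1.91. Of these 3 breakdown genes 2 were thus higher and 1 lower than in wild type, beside the same shares over all genes. *Cyp26b1* was under an FPKM of 1 in wild type and *Cyp26c1* in tw18/tw18, so each could be counted in that direction alone.

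Among the other RAR and RXR genes the abundant ones stayed under the threshold against wild type. *Rara* had FPKM values of 22.0 in wild type, 19.4 in tw18/+ and 29.3 in tw18/tw18, and *Rarg*, the most abundant RAR or RXR gene in wild type, had 39.4, 35.8 and 23.2. Their log2 ratios in tw18/tw18 against wild type were 0.41 and -0.77, so they lay on opposite sides of 0. Thus *Rarg* exceeded *Rara* in wild type and in tw18/+ and was below it in tw18/tw18. *Rxra* had FPKM values of 6.28, 7.81 and 12.1, a log2 ratio of 0.95 against wild type, and *Rxrb* 17.7, 17.4 and 15.5, a log2 ratio of -0.19 whose sign turned with equal FPKM sums. *Rxra* passed the threshold under that scaling. *Rxrg* was low, with 0.259, 0.965 and 1.03 from about 7, 35 and 37 fragments, and it passed the threshold against wild type, at 1.99 (0.75 to 3.34). The coactivator gene *Ncoa1* (0.850, 1.40 and 3.15) and the nuclear receptor gene *Ppard* (12.6, 12.3 and 27.2) were higher in tw18/tw18 than in both other libraries. Of 12 receptor and cofactor genes tested against wild type these 3 were higher and none was lower, beside 15.1% and 6.94% over all genes. *Rxrg* and *Ncoa1* were under an FPKM of 1 in wild type, so they could be counted in that direction alone.

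Of 20 genes listed as responding to retinoic acid in embryos or cells, 10 reached an FPKM of 1 in tw18/tw18 or wild type, 5 of them were higher in tw18/tw18 and none was lower, beside 15.1% and 6.94% over all genes. Of the 5, *Hoxd4* and *Meis1* were under an FPKM of 1 in wild type, so they could be counted in that direction alone. *Nr2f2*, an orphan nuclear receptor gene, had FPKM values of 4.50 in wild type, 4.79 in tw18/+ and 19.1 in tw18/tw18, a log2 ratio of 2.09 against wild type. *Meis1*, a homeobox gene, had 0.736, 1.37 and 5.30, a log2 ratio of 2.85, and the zinc finger gene *Tshz1* had 4.17, 3.57 and 13.0, a log2 ratio of 1.64. All of these were highest in tw18/tw18. The Hox genes of the list were low. *Hoxd4* was listed at 0 in wild type and measured 0.203 in tw18/+ and 1.79 in tw18/tw18. *Hoxb1*, an early Hox gene chosen here after its values were seen, measured 0.314 in wild type and 0.0749 in tw18/+ and was listed at 0 in tw18/tw18. *Hoxa2*, *Hoxa4*, *Cdx1* and *Stra8* were listed at 0 in every library.

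**Figure D3:**
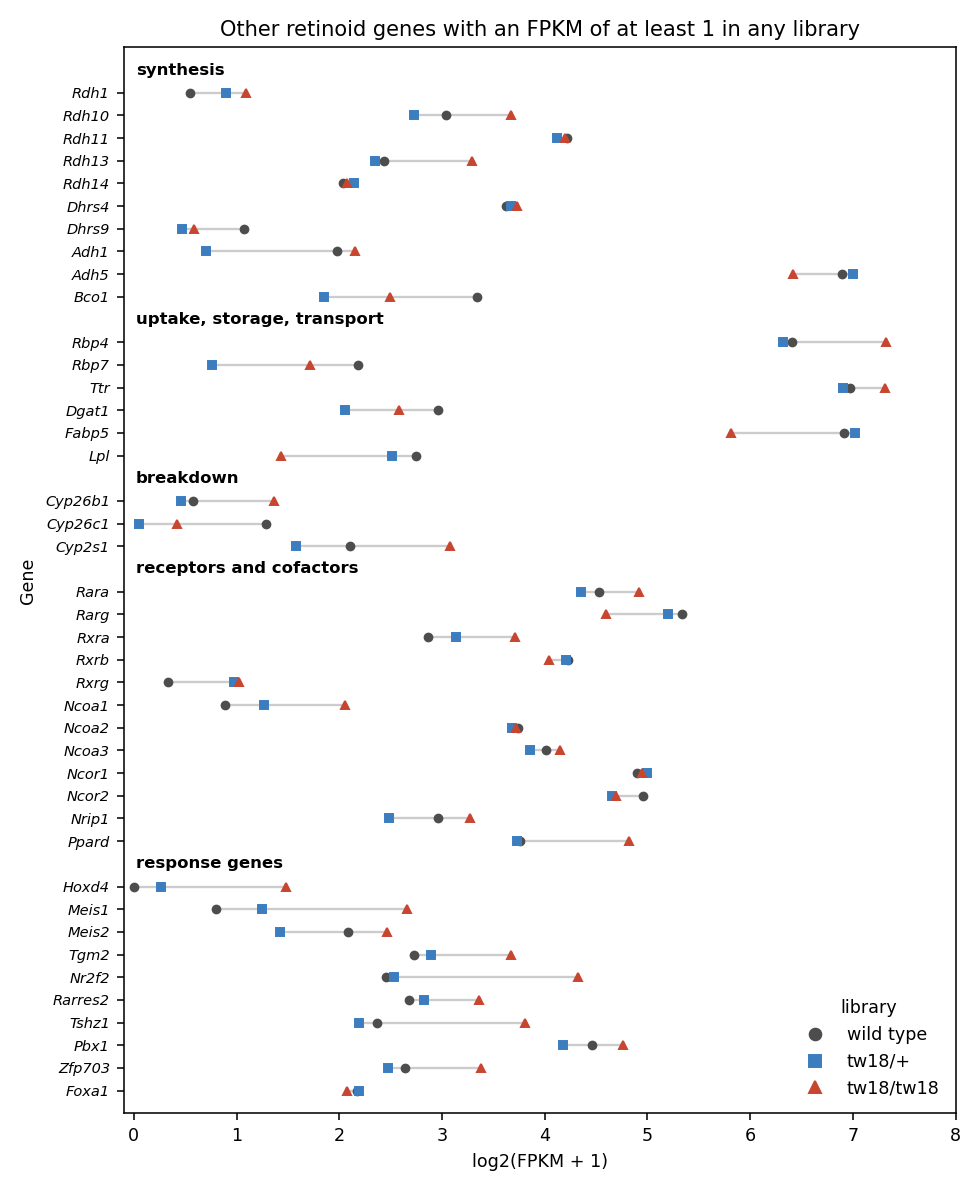
Log2(FPKM + 1) of other listed retinoid genes that reached 1 FPKM in any library, with 1 such gene not shown, grouped by role, in wild type (circles), tw18/+ (squares) and tw18/tw18 (triangles), with a grey line over the range of the 3 libraries. *Nr2f2*, *Meis1* and *Tshz1* have their highest value in tw18/tw18, and *Fabp5* and *Lpl* have their lowest value there.

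Marker genes of the epiblast and of other tissues also differed between the libraries, and not all in the same direction. All 10 epiblast markers were below wild type in tw18/tw18, 5 of them by the threshold. Over all genes 15.1% were higher and 6.94% lower in this pair. The summed FPKM of the epiblast markers was 1949 in wild type, 2071 in tw18/+ and 1002 in tw18/tw18. The list was led in each library by *Dnmt3b*, a DNA methyltransferase gene, with 719, 733 and 359. Of 8 streak and mesoderm genes tested 6 were lower in tw18/tw18 than in wild type, and the sum of the 9 listed was 192, 131 and 74.1. The list was led by *Eomes*, a T-box gene (77.1, 58.0 and 37.0), and the streak genes *T* and *Mesp1* were listed at 0 in tw18/tw18. Of 13 visceral endoderm genes none passed the threshold against wild type, and their sum was 925, 915 and 1243, with *Apoa1* leading (246, 233 and 337).

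The summed levels of the fibroblast and smooth muscle, endothelial and extra-embryonic ectoderm lists were highest in tw18/tw18, while that of the decidual stroma was highest in wild type. The counts against wild type that follow stand beside 15.1% higher and 6.94% lower in tw18/tw18 over all genes. Of 10 fibroblast and smooth muscle genes 9 were higher than in wild type. Their sum was 112 in wild type, 131 in tw18/+ and 515 in tw18/tw18, led by *Des* (45.5, 65.9 and 201). Of 12 decidual stroma genes 7 were higher and 3 lower in tw18/tw18 than in wild type. Against tw18/+ 10 were higher, beside 14.9% higher and 5.65% lower over all genes. The sum of that list was 1832, 285 and 787, since *Prl8a2*, a decidual prolactin gene, had 1504 in wild type, 155 in tw18/+ and 377 in tw18/tw18. The decidual list therefore held genes with the order of *Stra6*, such as *Hoxa11*, beside genes with another order, such as *Prl8a2*. Of 10 endothelial genes 6 were higher, with sums of 61.4, 47.9 and 125 led in wild type and tw18/tw18 by *Cdh5* (23.2 and 38.8), and of 7 extra-embryonic ectoderm genes 6 were higher, with sums of 26.5, 24.0 and 53.2 led by *Ets2* in wild type (12.8) and *Tfap2c* in tw18/tw18 (18.4). The sum of 6 trophoblast genes was 174, 144 and 414, with 1 higher and 2 lower of the 4 tested against wild type, and was led by *Prl3d1* in wild type (113) and *Plac8* in tw18/tw18 (210). The sum of 6 uterine epithelial genes was 20.2, 25.6 and 52.1, with 2 of 3 higher and *Krt19* leading (15.2, 22.2 and 40.3). The sum of 10 immune genes was 19.0, 11.3 and 24.0, with 2 of 5 higher and *Csf1r* leading (10.7, 4.02 and 8.06). *Ctsq* was listed at 0 in every library, *Wnt7a* too, and *Ltf* in wild type and tw18/+. In a mixed sample fewer cells of a type and less RNA per cell cannot be told apart, and the part of these tissues in the retinoid differences was not tested.

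**Figure D4:**
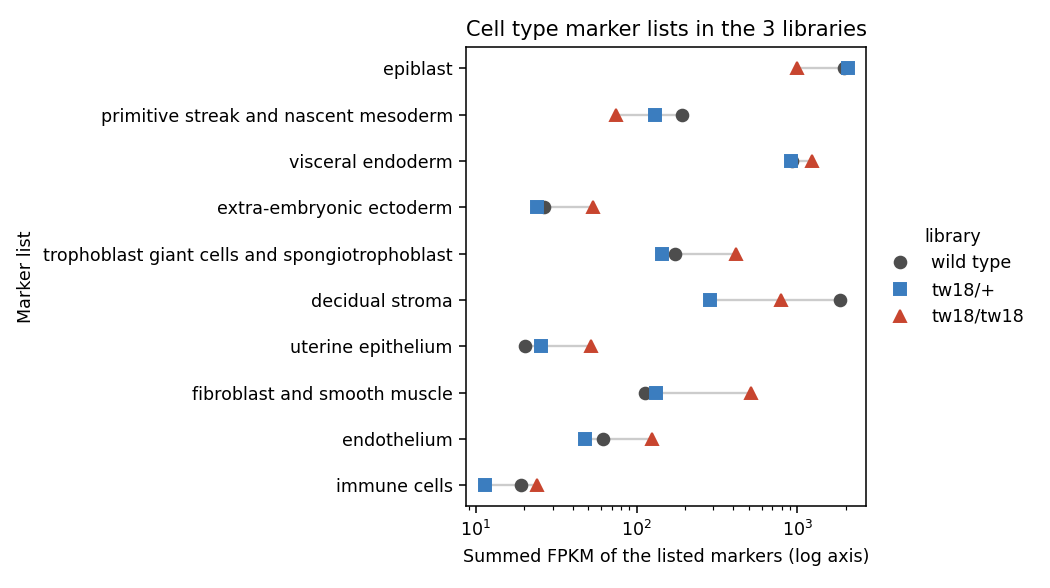
Summed FPKM of each cell type marker list on a log axis in wild type (circles), tw18/+ (squares) and tw18/tw18 (triangles), with a grey line over the range of the 3 libraries. The epiblast sum is 1002 in tw18/tw18 against 1949 in wild type, and the fibroblast and smooth muscle sum is 515 against 112.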

How the data were processed

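The authors sequenced TotalScript libraries as paired 50 bp reads, aligned these to mouse genome build GRCm38 (mm10) by TopHat, and deposited FPKM per gene from Cuffdiff, with 1 library and 1 column for each genotype. The gene annotation and the library normalization are not given in the sources used here. Columns were matched to samples by genotype.

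Log2 ratios were formed from these FPKM values without a pseudocount, with a minimum of 1 for the higher value and a threshold of 1, and no test was run. Where a value was 0, and for medians, differences of log2(FPKM + 1) are given. The members, the 5 retinoid lists, the 10 marker lists and the rule for named genes were chosen with earlier results of these data known. The rule names the members, the RAR, RXR, CYP26, *Rdh10* and *Rbp4* genes, listed retinoid genes past the threshold against both other libraries, nearest patterns and leading markers. Some listed genes count in the totals but are not reported here by name. *Bco1*, *Stra6l* and *Adgre1* were found under older symbols.

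The value of 1 fragment was found from single-transcript genes over 800 bp in length, with 166 low values in wild type, 255 in tw18/+ and 184 in tw18/tw18. Of these, 82.5%, 84.7% and 86.4% lay within 0.2 of a whole number, so fragment numbers are estimates. The full length of RefSeq-linked GENCODE M21 transcripts was used, averaged over transcripts. Intervals are exact Poisson (levels) and Clopper-Pearson (ratios). The calls and the depth estimate were tested on simulated data. For the calls these held genes with a mean FPKM of at least 5, changes well past the threshold and counting error only. They do not cover calls near the minimum or the threshold, or differences between embryos. The alternatives tried were pseudocounts, filters, a threshold of 2, scalings and tw18/+ as the reference. Python 3.11.15, numpy 2.4.6, pandas 2.3.3, scipy 1.17.1 and matplotlib 3.10.9 were used.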

Additional observations from a re-analysis of the deposited data

How the results depend on the processing

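The number of the 9 genes past the threshold in tw18/tw18 against wild type was 5, and it was 3 with a minimum FPKM of 5 and 3 with a log2 threshold of 2. Against tw18/+ it was 6, and 3 with a log2 threshold of 2. Between tw18/+ and wild type it was 0, and 1 without a filter on low values. For the other retinoid genes in tw18/tw18 against wild type the number was 15, with 8 under a pseudocount of 1, 8 with a minimum FPKM of 5, 29 without a filter and 4 with a log2 threshold of 2. Against tw18/+ it was 17, with 11, 10, 29 and 3 in the same order. Between tw18/+ and wild type it was 6, with 2 at a minimum FPKM of 5, 18 without a filter and 3 at a log2 threshold of 2. The pseudocount and the filter act on genes with low values, and the threshold of 2 leaves out those with smaller ratios at any level. Counted genes listed at 0 in 1 library of a pair, such as *Aldh1a1*, have no ratio and stay counted at that threshold. The other 34 counts stayed within 1.5 times. None of the 110 recomputed ratios of single members reversed a called direction. Scaling to equal FPKM sums added 0.21 to each log2 ratio of tw18/tw18 against wild type. No replicate could be left out and no paired analysis was possible because each genotype has 1 library, and *Aldh1a1*, *Aldh1a3* and *Rarb* rest on few fragments.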

Other observations

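Some retinoid genes outside the 9 members set tw18/+ apart from wild type. Of 38 listed genes that reached an FPKM of 1 in this pair, none was higher in tw18/+ and 6 were lower, beside 4.70% higher and 5.02% lower over all genes. The 6 were *Dhrs9*, *Adh1*, *Bco1*, *Rbp7*, *Dgat1* and *Cyp26c1*, which are named here after their values were seen, and 4 of them were under an FPKM of 1 in tw18/+. *Adh1*, an alcohol dehydrogenase gene, measured 2.93 FPKM in wild type, 0.622 in tw18/+ and 3.44 in tw18/tw18, from about 60, 18 and 98 fragments. *Bco1*, the enzyme that cleaves beta-carotene into retinaldehyde, measured 9.12, 2.61 and 4.64, which came from some 272, 109 and 192 fragments. Both were lowest in tw18/+. The decidual genes *Prl8a2* (1504, 155 and 377), *Prl3c1* (121, 13.2 and 25.2) and *Htra1* (46.8, 9.72 and 22.1) were also lowest in tw18/+. They were the 3 of 12 decidual genes past the threshold in this pair, 9 were not, and 4 of the 12, such as *Hoxa11* (3.67, 6.87 and 30.8), were above wild type in tw18/+. Genes lower in tw18/+ than in wild type were not confined to the decidual list. Of 8 streak and mesoderm genes tested in this pair 3 were lower (*T*, *Mesp1* and *Mesp2*) and none was higher. Of 9 endothelial genes tested 3 were lower and 2 higher. The part of decidual or other tissue, or of developmental stage, in these differences was not tested.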
